A study of Homo sapiens with 24 samples.

Results

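The combination of PI103 with PD0325901 was compared with its single agents by RNA sequencing of AGS, a gastric adenocarcinoma cell line of human origin, 24 h after the inhibitors were added. The 12 libraries of these 3 groups were taken from 24 libraries in 6 groups, with 4 replicates in each group. PI103 was given at 0.7 µM, PD0325901 at 0.035 µM, and the combination held 0.35 µM of PI103 and 0.0175 µM of PD0325901, which is 50% of each single dose. The other groups were untreated cells, used here for levels in control, and oxozeaenol alone or with PI103, which entered the fit only. Groups follow the sample titles, because in the treatment field the number in a compound's name goes up by 1 with each replicate. The labels call the cells wild type, give the control treatment as none and do not say whether vehicle was added. The 4 replicates are biological according to the design text, and each replicate number is also the batch.

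PI103 inhibits class I PI3 kinases and mTOR, which pass growth factor and nutrient signals to protein synthesis, nucleotide synthesis and glucose use, and which restrain the FOXO transcription factors. PD0325901 inhibits MEK, the kinase that activates ERK. ERK induces transcription factors of the ETS and immediate-early families together with its own inhibitors, the DUSP phosphatases and the Sprouty proteins. Both pathways meet on the translation machinery and on MYC, and each is known to be released from feedback when the other is inhibited.

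The measure was the departure, the log2 level in the combination minus the mean of the log2 levels in the PI103 and PD0325901 groups. A departure of 0 would be found if both agents acted on the log2 level in proportion to dose. Neither agent was measured alone at 50% of its dose, so a joint effect of both agents and a curved dose response of 1 agent cannot be told apart. A gene was called at an adjusted p under 0.05 in edgeR's quasi-likelihood test, and every adjusted p below comes from that test. Called genes were then divided by the tests of the combination against each single agent. A gene called beyond both agents lay outside the range of the 2 single-agent levels and passed both tests. Genes called against PI103 only did not pass the test against PD0325901, and are said below to stand with PD0325901. Those called against PD0325901 only are likewise said to stand with PI103. Equality of levels was not tested, so such genes may also lie beyond both agents.

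The 12 libraries held 48196670 to 74935514 counts in genes. The epithelial markers EPCAM (at least 739 CPM, reads scaled to the library total) and KRT19 (at least 538 CPM) were high in all 12. Of the same marker list, KRT8, KRT18 and GATA6 were at 108 CPM or more and MUC1 at 37.1 to 184 CPM. CLDN18, also of that list, went the other way, at 0.0622 to 1.3 CPM. Of 6 fibroblast markers, DCN was at 0 in all 12 libraries, COL1A2 in 9 and LUM in 6, PDGFRB reached 0.242 CPM, and COL1A1 lay at 17.4 to 34.5 CPM. COL3A1 reached 1.17 CPM and departed by 1.97 (adjusted p 0.000126). The sum of these markers was 32.3 to 34.7 CPM with PI103, 18.2 to 23.3 with PD0325901 and 22.4 to 27.5 with the combination, and its part in the results was not tested. Of the leukocyte markers, CD3E was at 0 in 11 libraries, PTPRC reached 0.104 CPM and CD14 0.138 CPM. CD68 lay at 0.653 to 3.65 CPM and LYZ, which gastric epithelium also makes, at 188 to 495 CPM. Replicate 2 of PD0325901 and replicate 2 of the combination stood apart. On the first principal component, which held 57.4% of the variance of the 12 libraries, PD0325901 replicate 2 was at 51.9 against 27.1 to 30.2 for its group, and combination replicate 2 was at 43.4 against 6.81 to 11.6. Results that rest on these libraries are given with and without them.

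Of 13947 genes tested, 3065 departed from the mean (22.0%), 1512 higher (10.8%) and 1553 lower (11.1%). With upper-quartile scaling in place of TMM, which put the median departure of all genes at 0.0562, 1996 were higher and 1022 lower. The median departure of all genes tested was -0.00157 on the log2 scale, and the median size among called genes was 0.413. Called rises of at least 1 on the log2 scale numbered 283, and called falls of that size 72. The sign was the same in all 4 batches for 3029 of the 3065 genes, which the calls themselves favour because they rest on the same libraries. Without combination replicate 2 the count fell to 1466 genes, and without all 3 libraries of batch 2 it was 2054, of which 1932 were among the 3065. Every list count below is to be read beside the shares of all genes tested, 10.8% called higher and 11.1% called lower. For members beyond both agents these shares were 2.14% higher and 2.39% lower.

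Most departing genes were called against 1 of the agents and not against the other. Of the 3065, 1855 (60.5%) were called against PI103 only, 954 higher (6.84% of genes tested) and 901 lower (6.46%). Another 491 (16.0%, or 3.52% of genes tested) were called against PD0325901 only, 199 higher (1.43%) and 292 lower (2.09%). Whatever the departure, 5391 genes (38.7%) differed between the combination and PI103 and 2521 (18.1%) between the combination and PD0325901. Genes called against PI103 only numbered 744 without combination replicate 2 and 920 without batch 2. Genes beyond both agents numbered 631 (4.52% of genes tested), 298 higher (2.14%) and 333 lower (2.39%). With upper-quartile scaling the higher and lower counts were 432 and 202 beyond both agents, 1222 and 584 against PI103 only, and 265 and 213 against PD0325901 only, so more genes were higher than lower in each class. The count beyond both agents was 994 with the batch as a block, 364 without combination replicate 2, 336 without PD0325901 replicate 3 and 1036 without PD0325901 replicate 2. In 364 genes all 4 combination libraries lay above all 8 single-agent libraries (2.61%), and in 302 genes they lay below all 8 (2.17%).

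**Figure D1:**
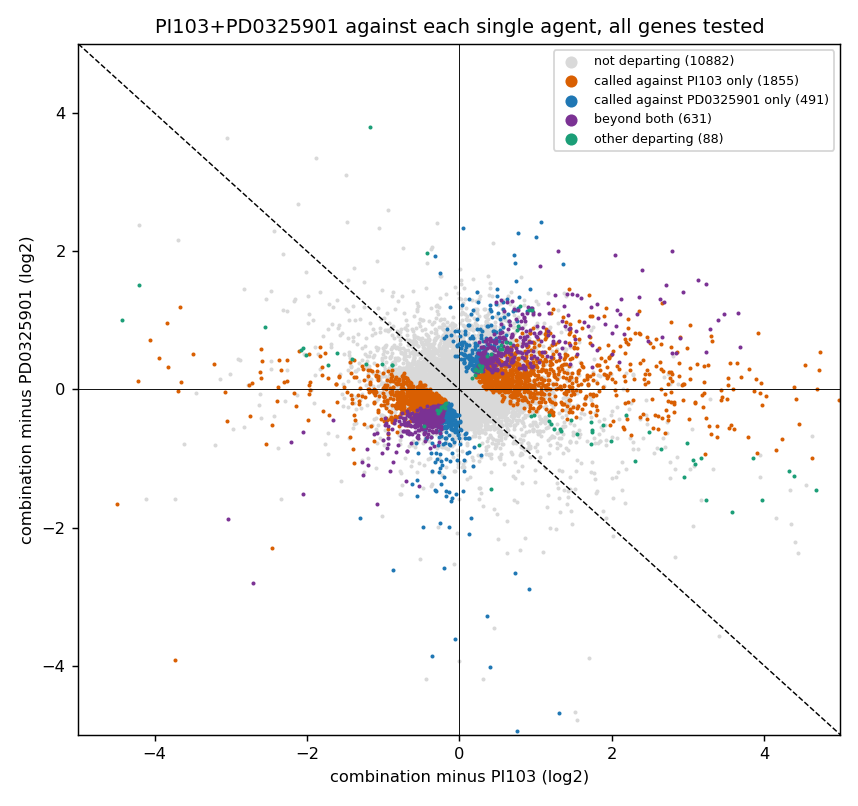
Each point is 1 of the 13947 genes, with its difference between the combination and PI103 on the x axis and between the combination and PD0325901 on the y axis (log2, fitted values), coloured by call; on the dashed line the departure is 0, and 25 genes lie outside the axes. Most coloured points spread along the horizontal axis, the 1855 genes called against PI103 only, and the 631 genes beyond both agents fill the upper right and lower left corners.

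**Figure D2:**
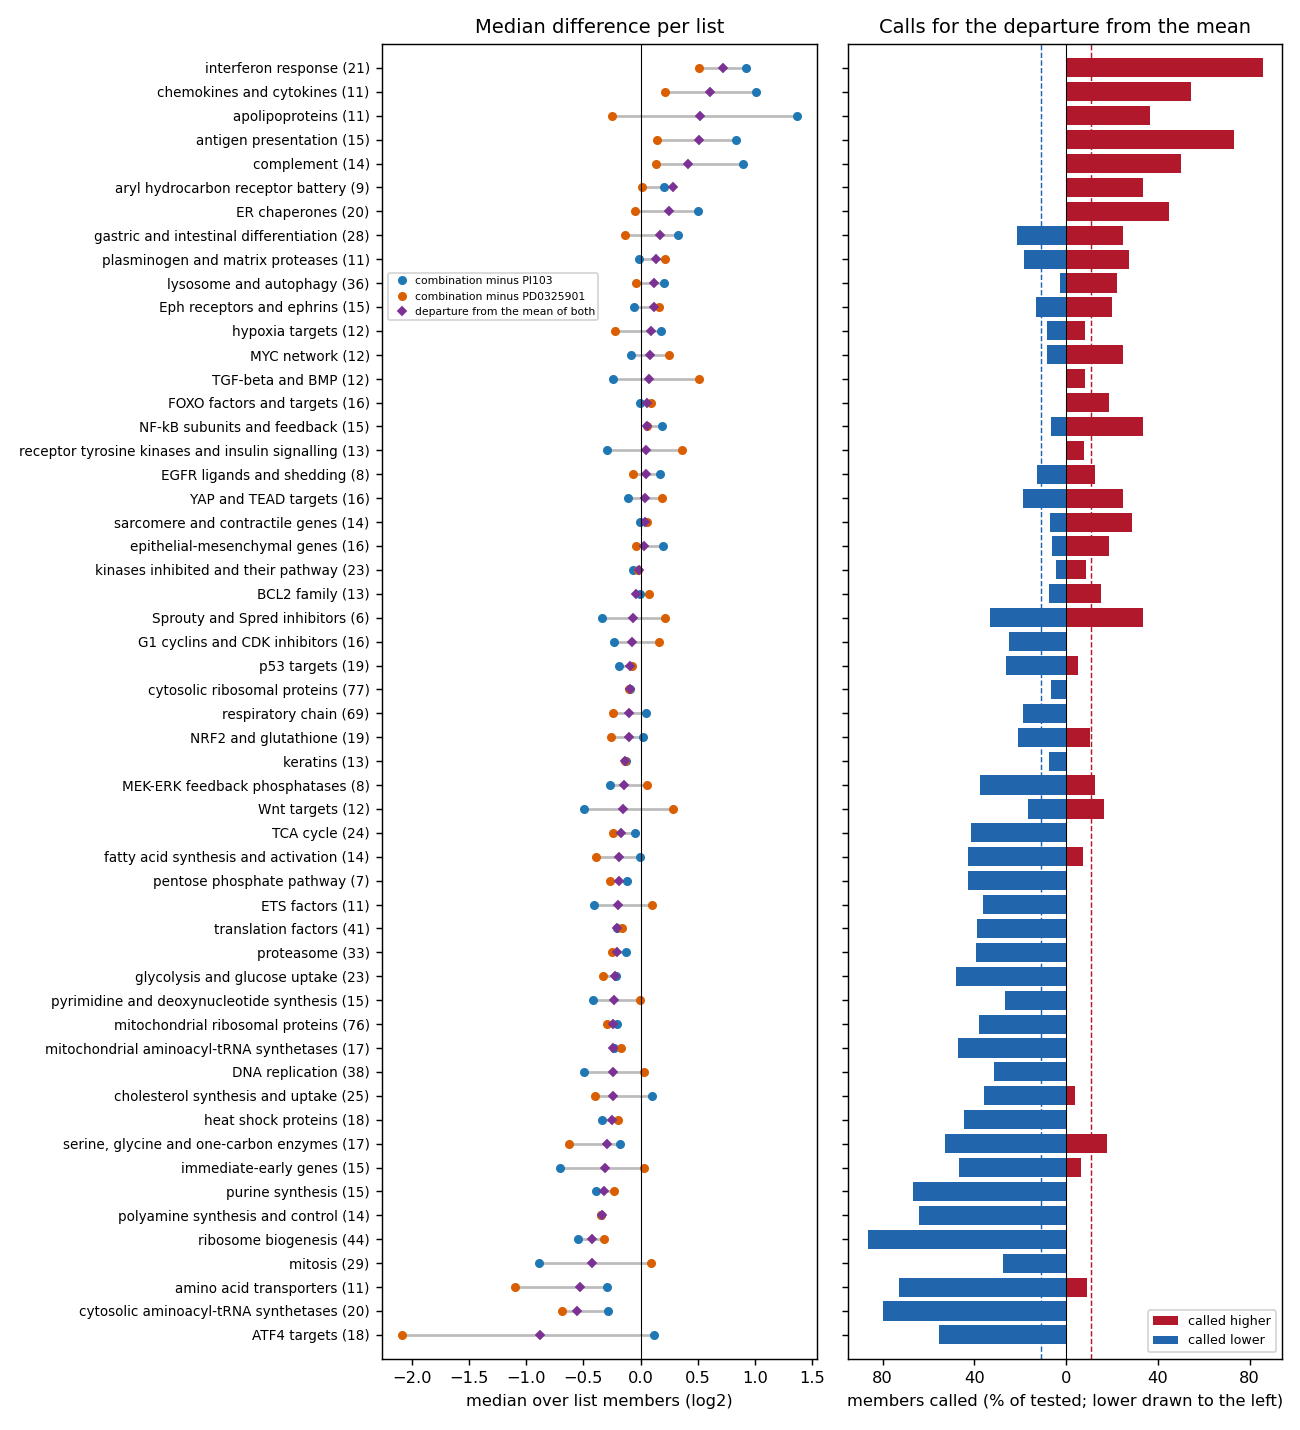
For 54 lists of genes, with the number of members tested in brackets, the left panel gives the median difference of the combination from each agent and from their mean (log2), and the right panel the share of members called higher or lower, with dashed lines at the shares over all genes tested (10.8% and 11.1%). Interferon response genes are at the top with 18 of 21 called higher, and 38 of 44 ribosome biogenesis genes are called lower.

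Most interferon response genes were higher in the combination than the mean of its agents, and many were higher than with either agent. Of 21 measured members of the list, 18 were called higher (85.7%, against 10.8% of all genes tested) and 0 lower, and the median departure was 0.72. In 11 of them the combination was beyond both agents (2.14% of all genes). In bulk RNA, fewer cells of a kind and less RNA per cell cannot be told apart, here and in every result below. Many genes of this response carry the interferon-stimulated response element, by which a transcription factor complex that holds IRF9 binds DNA after interferon has bound its receptor. It was searched as a pair of GAAA letters separated by 2 bases of any kind, on both strands, in the 250 bases before the start of each gene in RefSeq (GRCh38.p14), where 10529 of the 13947 genes had a promoter. The letters were found in 2.32% of all promoters, 5.0% of those of genes called higher, 8.21% of those of genes beyond both and higher (17 of 207), 8 of 15 of the interferon list and 6 of 12 of the antigen presentation list. Stretches of 4 promoters are shown 5′ to 3′ on the strand of the gene, with the matches in capitals. They belong to the only genes with a match among the 11 beyond both agents. They are IFIT1 at chr10:89392485-89392564 on the plus strand, IFIT3 at chr10:89327840-89327919 on the plus strand, IFI27 at chr14:94110606-94110685 on the plus strand and ISG15 at chr1:1013355-1013434 on the plus strand. Each stretch holds 2 matches, and those of ISG15 overlap. The rest of the 11, among them IFIT2 and OAS2, had no match in the 250 bases or no promoter found by symbol. A match describes the letters and does not show that the site is used in these cells.
IFIT1: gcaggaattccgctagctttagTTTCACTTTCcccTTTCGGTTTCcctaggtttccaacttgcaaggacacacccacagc
IFIT3: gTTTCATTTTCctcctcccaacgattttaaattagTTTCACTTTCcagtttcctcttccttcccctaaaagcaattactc
IFI27: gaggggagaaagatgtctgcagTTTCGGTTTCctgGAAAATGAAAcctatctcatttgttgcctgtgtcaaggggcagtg
ISG15: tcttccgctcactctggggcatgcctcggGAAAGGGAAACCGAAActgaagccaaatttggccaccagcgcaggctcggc

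IFIT2, which binds foreign RNA and limits its translation, was at 23.1, 21.4, 22.7 and 19.4 CPM with PI103, 22.6, 25.1, 25.2 and 20.7 CPM with PD0325901 and 41.7, 42.1, 38.4 and 37.7 CPM with the combination, against 14.3 ± 0.903 CPM (SD, n = 4) in control. The 8 single-agent libraries lay within a narrow range and all 4 combination libraries lay above it, a departure of 0.83 (SE 0.07, adjusted p 1.65e-08). OAS2, an enzyme that activates RNase L on double-stranded RNA and was chosen after its values were seen, was at 0.707, 0.555, 0.823 and 0.792 CPM with PI103, 2.01, 2.23, 2.29 and 1.80 CPM with PD0325901 and 6.53, 5.91, 4.96 and 4.65 CPM with the combination. Its groups were in the same order in every batch, PI103 lowest and the combination highest, with no overlap, and its departure was 2.17 (SE 0.21, adjusted p 6.57e-08). IFI27, a mitochondrial interferon-induced protein, was at 4.78, 4.82, 4.94 and 5.09 CPM with PI103, 12.8, 13.8, 14.8 and 13.7 CPM with PD0325901 and 18.4, 24.8, 17.2 and 18.2 CPM with the combination, a departure of 1.26 (SE 0.09, adjusted p 1.55e-09). Here too the combination libraries were all above the rest. IFIT1 departed by 0.97, IFIT3 by 0.89, MX2 by 1.24, OASL by 0.95, OAS1 by 0.73 and ISG15 by 0.41, each beyond both agents.

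Among the regulators of the response, IRF9 was at 32.3, 25.9, 31.0 and 31.9 CPM with PI103, 34.5, 34.7, 37.9 and 34.9 CPM with PD0325901 and 50.3, 60.6, 44.5 and 50.3 CPM with the combination, a departure of 0.65 (SE 0.09, adjusted p 8.32e-06), and its group of 4 combination libraries did not overlap the others. In GENCODE release 29, 48.4% of its exon sequence is shared with another gene of the same strand, so part of its reads cannot be assigned with certainty. IRF1 departed by 0.48 and STAT2 by 0.43. MX1 (0.17) and IRF7 (0.19) did not pass. All 84 differences, of 21 genes in 4 batches, were above 0. The median level of the list, relative to the mean of the single agents, was 0.71, 0.89, 0.56 and 0.63 in the combination libraries, -0.09, -0.22, -0.16 and -0.19 with PI103 and 0.08, 0.15, 0.21 and 0.15 with PD0325901. Of the 54 lists it was the only one in which every combination library lay above every single-agent library. Leaving out 1 library at a time left 16 to 19 members called.

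**Figure D3:**
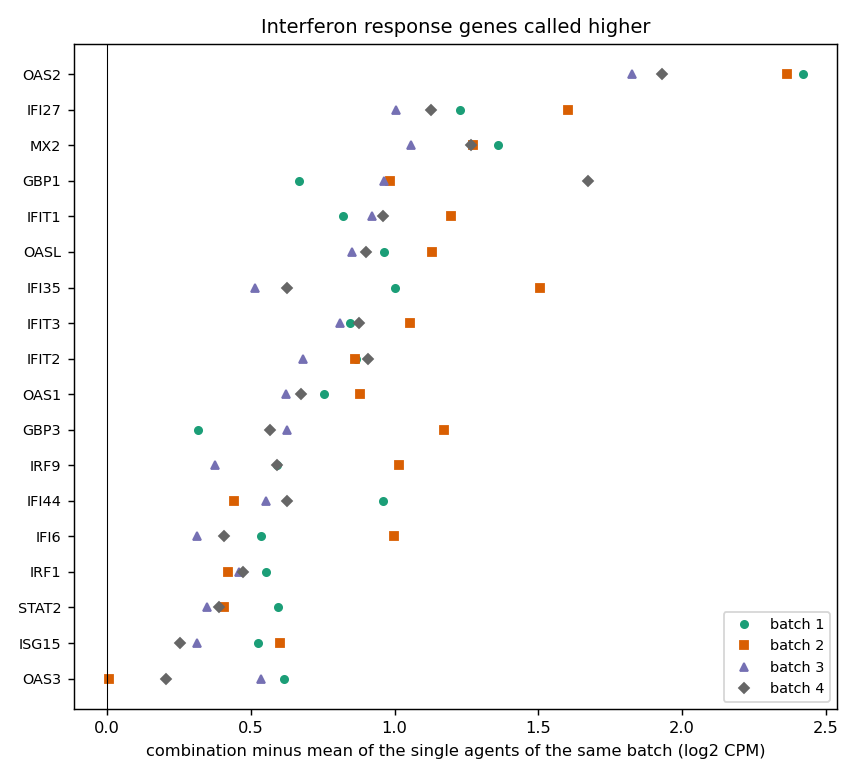
Difference between the combination and the mean of the single agents of the same batch (log2 CPM, x axis) for the 18 interferon response genes called higher, with 1 symbol per batch. All 72 points lie to the right of 0, and OAS2 lies farthest to the right. The genes shown were chosen by calls on the same libraries.

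The interferon genes themselves and the sensors of foreign nucleic acid were looked up after these results were known, so their values are a description. IFNB1, a type I interferon, was at 0.231, 0.156, 0.343 and 0.420 CPM with PI103, 1.44, 1.15, 1.51 and 1.99 CPM with PD0325901 and 2.15, 3.39, 2.89 and 3.80 CPM with the combination, against 0.236 ± 0.0922 CPM (SD, n = 4) in control. Every combination library was above every single-agent library, and its departure was 2.20 (SE 0.23, adjusted p 2.30e-07). IL29, a type III interferon now called IFNL1, was at 1.18, 1.21, 0.806 and 1.15 CPM with PI103, 2.04, 2.18, 2.78 and 2.95 CPM with PD0325901 and 4.93, 4.32, 4.31 and 3.92 CPM with the combination, a departure of 1.41 (SE 0.17, adjusted p 1.23e-06) with no overlap of groups. IL28A and IL28B (IFNL2 and IFNL3) are near-identical copies whose shared reads may be left out or divided between them. Both lay low, at means of 1.40 and 0.630 CPM in the combination. These transcripts are scarce, and IFNB1 had 1209 reads in the 12 libraries together. IFNE, a type I interferon of epithelia, had another order, with means of 1.63 CPM with PI103, 1.17 CPM with PD0325901 and 2.37 CPM with the combination. Its departure was 0.78 (SE 0.27, adjusted p 0.0360), called against PD0325901 only. All 4 combination libraries lay above the other 8, but the call was kept only when the library left out was PD0325901 replicate 2 or 4 or PI103 replicate 4. IFNG and IFNK had 0 reads.

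The RNA sensors DDX58 (RIG-I) and IFIH1 (MDA5) were also beyond both agents, with departures of 0.76 (SE 0.08, adjusted p 1.40e-07) and 0.81 (SE 0.10, adjusted p 1.83e-06). DDX58 had a mean of 30.9 ± 3.30 CPM with PI103, 35.9 ± 3.01 CPM with PD0325901 and 56.4 ± 3.08 CPM with the combination (SD, n = 4 each), and all 4 combination libraries lay above the other 8. TLR3, a sensor of double-stranded RNA in endosomes, departed by 1.22 and stood with PD0325901. Their adaptors and kinases did not pass, with departures of 0.19 for MAVS, -0.06 for TBK1 and -0.11 for IRF3. Of the interferon receptor chains, IFNGR1 (0.31, adjusted p 0.0202) and IFNAR2 (0.22, adjusted p 0.0409) were called higher and stood with PD0325901, while IFNAR1 (-0.05) and IFNGR2 (0.12) did not pass. The call of IFNGR1 was lost without combination replicate 2 or 4, and IFNAR2 passed only when the library left out was replicate 2 of either agent or combination replicate 3. In GENCODE 44.2% of the IFNAR2 exon sequence is shared with another gene of the same strand, and antisense exons lie opposite 39.1%. The receptor kinases JAK1 (0.12), JAK2 (0.05) and TYK2 (0.19) did not pass.

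Antigen presentation genes were higher than the mean and stood with PD0325901. Of 15 measured, 11 were called higher (10.8% of all genes) and 0 lower, and 7 were higher without combination replicate 2. All 11 were called against PI103 only (6.84% of all genes were higher in that class), the class of 60.5% of all departing genes. The median departure was 0.51 (0.39 without that library). PSMB9, a subunit of the immunoproteasome that cuts peptides for presentation, was at 0.892, 1.11, 1.13 and 1.39 CPM with PI103, 2.42, 3.98, 3.30 and 2.79 CPM with PD0325901 and 3.45, 6.602, 4.28 and 4.02 CPM with the combination, a departure of 1.29 (SE 0.20, adjusted p 5.39e-05). PI103 libraries were the lowest, and the other groups overlapped. B2M, the constant chain of class I molecules, departed by 0.63, HLA-B by 0.61 and TAPBP, which loads peptides, by 0.53, while TAP2 (0.05) did not pass.

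Chemokines for T cells that interferon induces were among the larger rises. CXCL11 was at 1.05, 0.833, 1.42 and 1.52 CPM with PI103, 2.96, 2.21, 3.01 and 4.71 CPM with PD0325901 and 5.67, 6.94, 8.10 and 10.5 CPM with the combination, and CXCL10 at 0.507, 0.295, 0.771 and 0.485 CPM with PI103, 4.95, 4.86, 4.98 and 6.34 CPM with PD0325901 and 4.74, 6.67, 5.69 and 6.69 CPM with the combination. Both are ligands of the receptor CXCR3. CXCL11 was beyond both agents, with no overlap of groups and a departure of 1.98 (SE 0.21, adjusted p 3.88e-07), while CXCL10 stood with PD0325901, with a departure of 1.85 (SE 0.16, adjusted p 9.74e-09). Of 11 chemokines and cytokines measured, 6 were called higher (10.8% of all genes) and 0 lower, 5 of them against PI103 only (6.84% of all genes). IL8, the neutrophil chemokine CXCL8, departed by 0.09 and did not pass. The median of the list was 0.61, and 0.26 without combination replicate 2.

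Some complement and apolipoprotein genes rose as well. CFB, factor B of the alternative pathway of complement, had the largest rise among called genes that averaged 5 CPM or more and kept their sign across the 4 batches. It was at 3.00, 1.82, 1.85 and 2.10 CPM with PI103, 6.86, 10.3, 6.42 and 5.23 CPM with PD0325901 and 18.8, 33.3, 16.0 and 14.7 CPM with the combination, against 0.366 ± 0.0881 CPM (SD, n = 4) in control. The 3 groups did not overlap and its departure was 2.38 (SE 0.19, adjusted p 4.26e-09), though 45.5% of its exon sequence is shared with C2 and a second gene of the same strand. Of 14 complement genes 7 were called higher (10.8% of all genes) and 0 lower, with a median departure of 0.42, and 4 were beyond both agents. SERPING1, the inhibitor of the classical pathway, departed by 1.01, C5, the precursor of the membrane attack complex, by 0.72 and C1S, a protease of the classical pathway, by 1.15, while C3 (0.20) did not pass.

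APOL1, a secreted and intracellular lipid-binding protein that interferon induces, was at 14.5, 11.8, 12.8 and 10.3 CPM with PI103, 12.8, 16.7, 14.1 and 11.8 CPM with PD0325901 and 36.5, 36.3, 30.8 and 24.1 CPM with the combination. The single-agent libraries overlapped each other, and the combination libraries were all above them, a departure of 1.29 (SE 0.12, adjusted p 4.87e-08). APOL6, a related intracellular protein, was at 1.26, 1.13, 0.994 and 1.24 CPM with PI103, 5.76, 8.71, 4.34 and 4.34 CPM with PD0325901 and 8.06, 11.3, 7.00 and 6.85 CPM with the combination, a departure of 1.68 (SE 0.16, adjusted p 3.82e-08), and PD0325901 replicate 2 overlapped the combination group. APOL2 (0.52) was beyond both agents too. The plasma apolipoproteins APOA1 (0.36), APOE (0.55) and APOC3 (0.25) did not pass. Of 11 apolipoproteins 4 were called higher (10.8% of all genes) and 0 lower, and their median of 0.52 was 0.14 without combination replicate 2.

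Among regulators of the transcription factor NF-kB, NFKBIZ, a nuclear coactivator, was beyond both agents by 1.19 (SE 0.17, adjusted p 2.56e-05), with group means of 3.99 ± 0.539, 6.40 ± 0.712 and 11.5 ± 3.46 CPM with PI103, PD0325901 and the combination (SD, n = 4 each). NFKBIB, an inhibitor that holds NF-kB in the cytoplasm, was beyond both and lower, with a departure of -0.41 (SE 0.09, adjusted p 0.00295). Of 15 members 5 were called higher (10.8% of all genes) and 1 lower (11.1% of all genes), with 2 lower with the batch as a block, and the 5 became 2 without combination replicate 1 or replicate 2, and 3 without PD0325901 replicate 1 or 4 or PI103 replicate 4. The subunits RELA (0.02) and NFKB1 (-0.15) did not pass.

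Most called members of the lists of genes that ERK induces stood with PD0325901, which the combination held at 50% of its single dose. These were all 4 called DUSP phosphatases of 8 measured, 3 of 4 called Sprouty and Spred genes of 6, 3 of 4 called ETS factors of 11 and 6 of 8 called immediate-early genes of 15. The same class held 60.5% of all departing genes, so it is not particular to these lists. Called members include genes called higher as well as lower. ETV4, an ETS factor induced by ERK, had the largest fall under the same conditions as CFB. It was at 83.8, 81.3, 75.1 and 80.03 CPM with PI103, 1.4997, 0.343, 1.35 and 1.27 CPM with PD0325901 and 1.53, 0.101, 1.04 and 0.808 CPM with the combination. PI103 libraries were far above the others, which overlapped, and the departure was -3.39 (SE 0.41, adjusted p 5.59e-06). DUSP6, the phosphatase that removes the activating phosphates of ERK, was at 57.7, 44.5, 47.4 and 46.6 CPM with PI103, 3.71, 1.72, 4.24 and 4.75 CPM with PD0325901 and 4.63, 1.63, 4.31 and 5.01 CPM with the combination, a departure of -1.77 (SE 0.27, adjusted p 9.04e-05). The lowest value in both groups that received PD0325901 was that of replicate 2. In GENCODE 40.5% of the DUSP6 exon sequence lies opposite an antisense gene, and the sources used here do not say whether the counting used strand.

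Other ERK outputs had the same pattern. SPRY4, a Sprouty inhibitor of the pathway, departed by -1.31, SPRED1 by -1.07, DUSP4 by -0.74, FOSL1, a subunit of AP-1, by -1.17 and ETV5 by -1.76, all called against PI103 only. EGR1, an immediate-early zinc finger factor, departed by -1.55 (SE 0.46, adjusted p 0.0217) and did not pass without PD0325901 replicate 1 or combination replicate 2 or 4. ETV1 (-1.35) lay between the agents and was called against both. Of 8 DUSP phosphatases 3 were called lower and 1 higher, and of 6 Sprouty and Spred genes 2 were lower and 2 higher. Of all genes 11.1% were lower and 10.8% higher. Of 11 ETS factors 4 were lower and 0 higher, and of 15 immediate-early genes 7 were lower and 1 higher. Without combination replicate 2, and likewise without its replicate 4, the lower calls of these last lists were 2 and 3. SPRED3 (1.56, at a mean of only 0.0860 CPM), SPRY1 (0.30), DUSP8 (0.38) and FOSL2 (0.28) were the ones called higher, and without combination replicate 1 the DUSP, Sprouty and immediate-early lists had 0 higher calls. MYC, which both pathways maintain, departed by -0.02 (SE 0.10, adjusted p 0.929), with means of 144 ± 10.7, 89.5 ± 15.6 and 112 ± 12.8 CPM (SD, n = 4 each), so the combination lay between the agents. Its departure was 0.04 with upper-quartile scaling.

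PHLDA1, a pleckstrin homology-like protein induced by growth factors, was the immediate-early gene that fell beyond both agents. It was at 37.6, 34.0, 36.9 and 31.7 CPM with PI103, 28.3, 33.0, 33.9 and 35.3 CPM with PD0325901 and 13.0, 19.6, 13.8 and 14.8 CPM with the combination, against 250 ± 23.7 CPM (SD, n = 4) in control. The single-agent libraries overlapped each other and the 4 combination libraries lay below all 8, a departure of -1.15 (SE 0.13, adjusted p 1.22e-06). Receptors and an adaptor of insulin and ERBB signalling that PI3 kinase inhibition is known to raise did not pass. INSR departed by 0.19 (SE 0.09, adjusted p 0.153), ERBB3 by -0.07 (SE 0.08, adjusted p 0.548) and IRS1 by 0.05 (SE 0.10, adjusted p 0.771). The levels of these 3 in the combination lay between those of the agents. FGFR3, called higher by 0.28 (SE 0.08, adjusted p 0.0104), was the 1 of 13 receptors and insulin signalling genes that passed, and it stood with PI103. With the batch as a block 2 of the 13 were called higher and 1 lower, and without batch 2, 3 were called higher. Of 23 kinases and subunits of the inhibited pathways, 2 were called higher and 1 lower, shares below the 10.8% and 11.1% of all genes. The higher ones were PIK3R1 (0.26), a regulatory subunit of PI3 kinase, and PIK3CD (0.51), a catalytic one. With the batch as a block 3 were lower in place of 1, and without batch 2, 0 were called in either direction. Without combination replicate 1 there were 0 higher calls, and without its replicate 2, 0 lower calls.

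**Figure D4:**
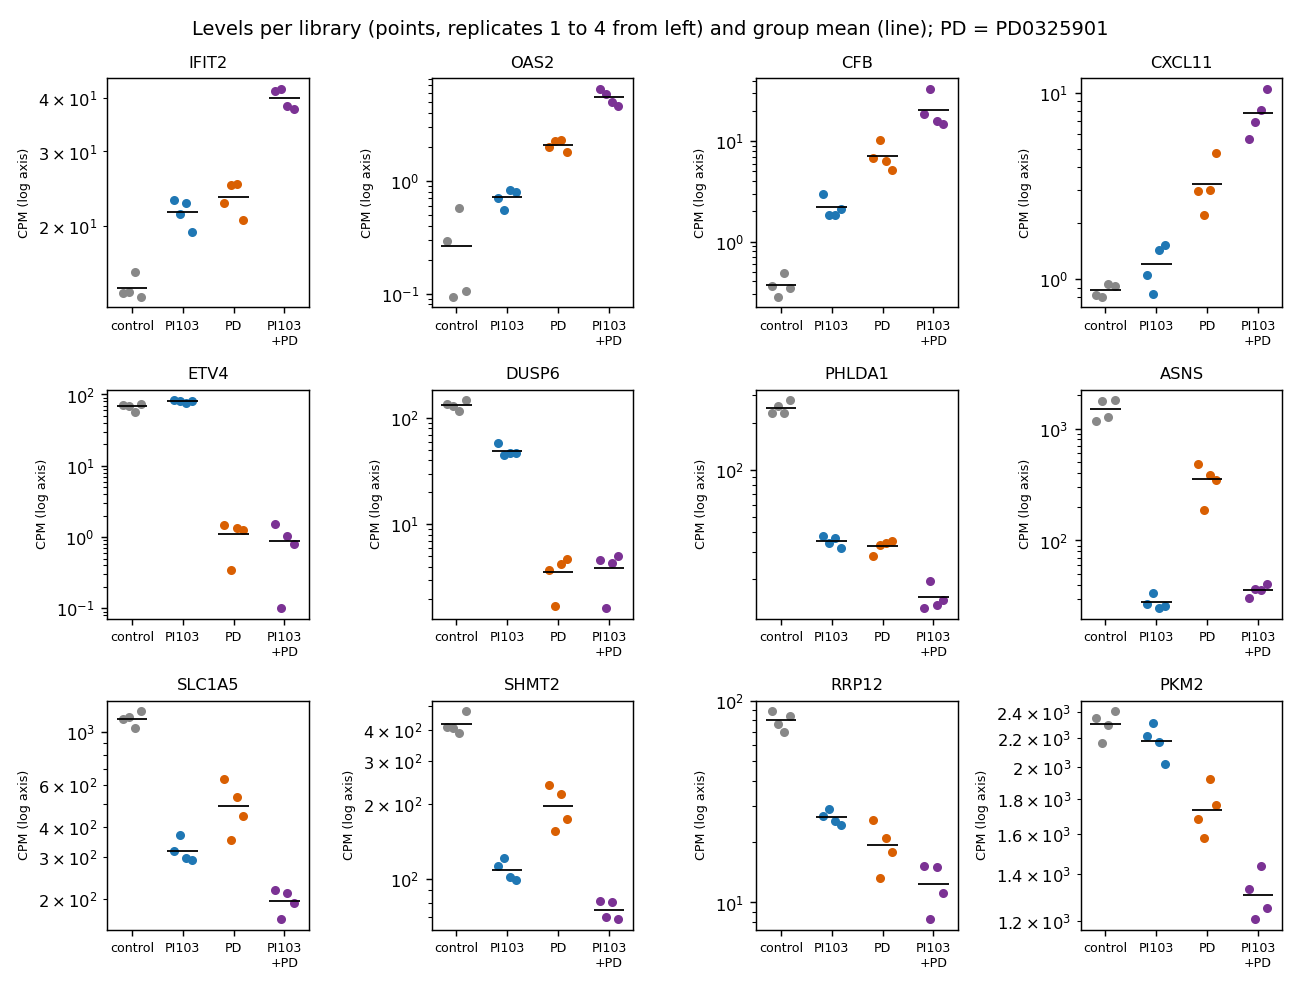
Level (CPM, log axis) of 12 genes in each of the 4 libraries per group, replicates 1 to 4 from left to right, with the group mean as a line, in control, PI103, PD0325901 (PD) and the combination. IFIT2, OAS2, CFB and CXCL11 are highest in the combination, PHLDA1, SLC1A5, SHMT2 and PKM2 are lowest there in every library, ETV4 and DUSP6 stand with PD0325901 and ASNS with PI103.

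Targets of ATF4, the transcription factor of amino acid shortage whose translation mTOR promotes, stood with PI103. Of 18 measured, with ATF4 itself counted in the list, 10 were called lower and 0 higher, and the median departure was -0.88. Of the 10, 9 were called against PD0325901 only, and the remaining called member was ATF4. Leaving out PD0325901 replicate 1 or combination replicate 2 left 6 calls, and leaving out combination replicate 3 or 4 left 5. Without batch 2 there were 4. ASNS, asparagine synthetase, was at 27.3, 34.1, 24.9 and 25.8 CPM with PI103, 487, 188, 382 and 349 CPM with PD0325901 and 30.7, 36.6, 35.8 and 41.1 CPM with the combination, against 1499 ± 331 CPM (SD, n = 4) in control. PD0325901 libraries were far above the others and the departure was -1.46 (SE 0.33, adjusted p 0.00355). In GENCODE 44.6% of its exon sequence is shared with another gene of the same strand. CHAC1, which degrades glutathione, was at 3.58, 6.14, 3.15 and 3.34 CPM with PI103, 124, 54.1, 100 and 70.8 CPM with PD0325901 and 4.59, 8.05, 4.89 and 3.92 CPM with the combination, a departure of -1.81 (SE 0.44, adjusted p 0.00673). ATF4 itself was at 357, 367, 321 and 340 CPM with PI103, 508, 380, 572 and 498 CPM with PD0325901 and 287, 272, 285 and 306 CPM with the combination. It was beyond both agents, with all 4 combination libraries below all 8 others, a departure of -0.52 (SE 0.09, adjusted p 0.00021).

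ATF4 binds the amino acid response element, searched as TGATGCAA on both strands of the same 250 bases, which 0.418% of all promoters and 0.867% of those of genes called lower contained. It was found in 2 of 16 promoters of ATF4 targets and in 2 of 12 of cytosolic aminoacyl-tRNA synthetases. In serine and one-carbon enzymes it was in 1 of 13, and in amino acid transporters in 0 of 10. Among the ATF4 targets with a match, FGF21 did not pass (adjusted p 0.278). The stretches around the match in CHAC1, an ATF4 target, and IARS, the isoleucyl-tRNA synthetase, are shown with the match in capitals. They are CHAC1 at chr15:40953227-40953304 on the plus strand and IARS at chr9:92293698-92293745 on the minus strand (GRCh38.p14, RefSeq). IARS was at a mean of 298 ± 29.3 CPM with PI103, 457 ± 59.9 CPM with PD0325901 and 240 ± 16.3 CPM with the combination (SD, n = 4 each), a departure of -0.62 (SE 0.11, adjusted p 0.000329). The E-box of MYC, CACGTG, was in 8.64% of all promoters, 9.54% of those of genes called lower, 2 of 36 of ribosome biogenesis genes, 2 of 13 of purine synthesis genes and 2 of 12 of polyamine genes.
CHAC1: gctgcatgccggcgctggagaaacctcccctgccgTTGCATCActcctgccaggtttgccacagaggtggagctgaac
IARS: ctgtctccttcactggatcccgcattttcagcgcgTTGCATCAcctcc

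Amino acid transporters were mostly lower. SLC7A11, the cystine importer, was at 6.17, 8.65, 7.54 and 6.09 CPM with PI103, 131, 62.4, 62.9 and 65.6 CPM with PD0325901 and 4.66, 6.62, 5.22 and 5.64 CPM with the combination, a departure of -2.11 (SE 0.45, adjusted p 0.00252), and stood with PI103. SLC1A5, the glutamine transporter, was beyond both agents at 317, 370, 298 and 291 CPM with PI103, 633, 354, 534 and 447 CPM with PD0325901 and 217, 164, 212 and 192 CPM with the combination, a departure of -1.01 (SE 0.15, adjusted p 2.96e-05) with no overlap. Each SLC1A5 library of the combination lay below each single-agent library. SLC38A2 (-0.74) and SLC7A1, the arginine importer (-0.53), were beyond both as well. Of 11 transporters 8 were called lower, 4 of them beyond both, and 1 higher, SLC36A1 of the lysosome (0.29).

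In serine and one-carbon metabolism, SHMT2, the mitochondrial enzyme that makes glycine from serine, was at 112, 121, 102 and 98.8 CPM with PI103, 239, 155, 221 and 174 CPM with PD0325901 and 80.8, 70.0, 80.3 and 68.4 CPM with the combination. It was beyond both agents without overlap, a departure of -0.97 (SE 0.14, adjusted p 2.90e-05). MTHFD2, the next enzyme in mitochondria, was at 123, 125, 118 and 102 CPM with PI103, 445, 266, 414 and 368 CPM with PD0325901 and 92.0, 90.03, 104 and 105 CPM with the combination and stood with PI103, a departure of -1.09 (SE 0.16, adjusted p 4.83e-05). Antisense exons lie opposite 33.2% of the MTHFD2 exon sequence. Of 17 members 9 were called lower and 3 higher, and without combination replicate 2 the counts were 5 and 1. PHGDH, the first enzyme of serine synthesis, was among the 9, but its highest library held 0.123 CPM and 3 of 4 combination libraries had 0 reads, so no fold is given.

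Enzymes that charge tRNA with amino acids were mostly lower. Of 20 cytosolic aminoacyl-tRNA synthetases 16 were called lower and 0 higher, with a median departure of -0.56 and 15 to 17 calls when 1 library was left out. YARS, for tyrosine, departed by -0.89 (SE 0.14, adjusted p 6.12e-05) and TARS, for threonine, by -0.70 (SE 0.12, adjusted p 0.000242). In both, the 4 combination libraries lay below all 8 others, with means of 63.7 ± 3.95 CPM for YARS against 78.5 ± 9.98 with PI103 and 177 ± 31.7 with PD0325901 (SD, n = 4 each). Of 17 mitochondrial synthetases 8 were called lower, 4 without combination replicate 2 and 5 without its replicate 4.

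Most ribosome biogenesis genes were lower. Of 44 genes for ribosomal RNA synthesis and processing, 38 were called lower (86.4%, against 11.1% of all genes) and 0 higher, with a median departure of -0.42. The combination was beyond both agents in 14 of them (2.39% of all genes), 22 stood with PD0325901 and 2 with PI103. Without combination replicate 2, 25 were called. RRP12, which exports ribosomal subunits from the nucleus, was at 26.7, 29.2, 25.3 and 24.3 CPM with PI103, 25.5, 13.2, 20.8 and 17.7 CPM with PD0325901 and 15.1, 8.25, 15.1 and 11.2 CPM with the combination, against 79.8 ± 8.46 CPM (SD, n = 4) in control. PD0325901 replicate 2 overlapped the combination, and the departure was -0.86 (SE 0.17, adjusted p 0.000904). NOP2, a methyltransferase of ribosomal RNA, was at 52.6, 61.9, 46.4 and 51.1 CPM with PI103, 57.5, 41.0, 55.0 and 47.3 CPM with PD0325901 and 39.99, 29.8, 39.3 and 35.4 CPM with the combination, a departure of -0.51 (SE 0.10, adjusted p 0.000614) with no overlap, though 54.4% of its exon sequence is shared with another gene of the same strand.

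The proteins of the ribosome are given by compartment. Of 76 mitochondrial ribosomal proteins 29 were called lower and 0 higher, with a median of -0.24, 14 of them beyond both agents. The count was 12 without combination replicate 2 and 44 without PD0325901 replicate 2. Of 77 cytosolic ribosomal proteins, whose messengers mTOR controls by translation, 5 were called lower (6.49%, below the 11.1% of all genes), with a median of -0.09. That count was 8 with the batch as a block and ranged from 1 (without combination replicate 2) to 8 (without PD0325901 replicate 2) when 1 library was left out. Of 41 translation factors 16 were lower, and 8 without combination replicate 2, 10 without its replicate 4 or PD0325901 replicate 3. EIF2B3, a subunit of the exchange factor of eIF2, was beyond both by -0.78 (SE 0.12, adjusted p 4.10e-05).

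**Figure D5:**
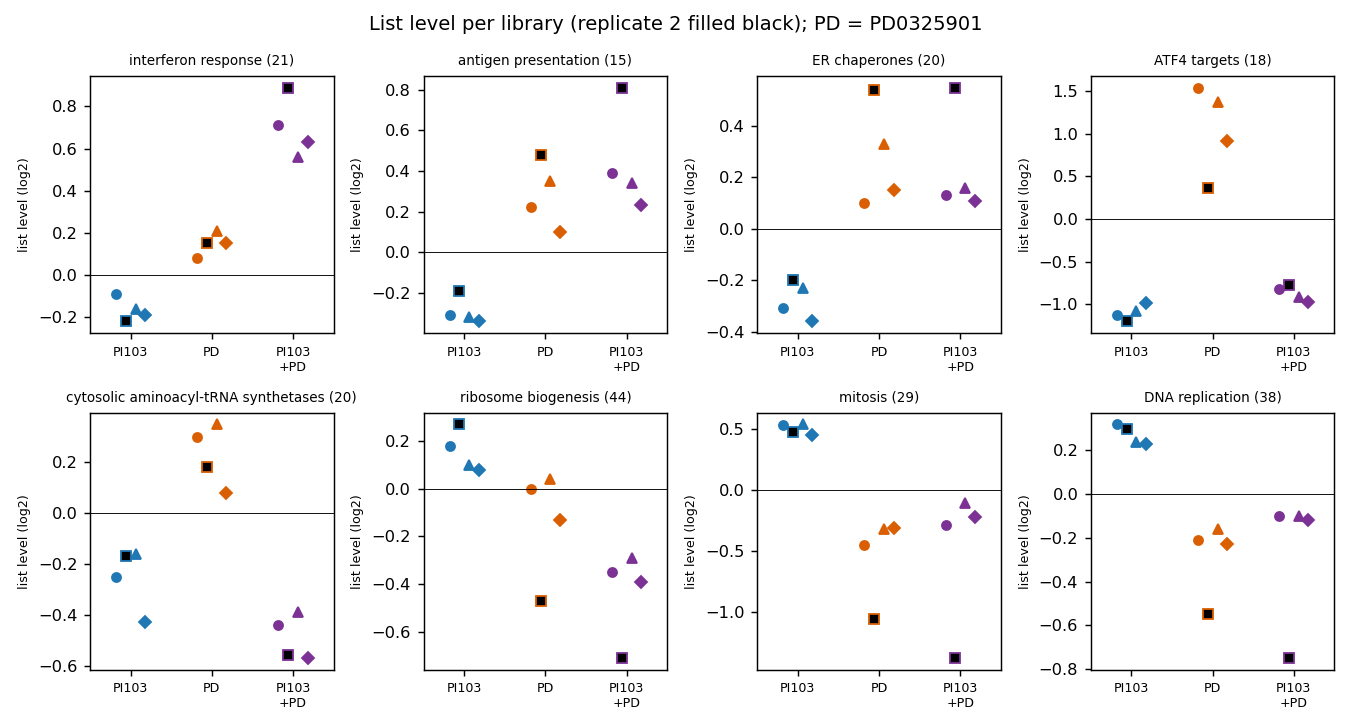
Median level of 8 lists per library (log2 of CPM plus 0.1, relative to the mean of the 8 single-agent libraries) with PI103, PD0325901 (PD) and the combination; replicates 1 to 4 run from left to right and replicate 2 is filled black. The 4 combination libraries are above all 8 others for the interferon response, and replicate 2 of PD0325901 and of the combination are the lowest of their groups for mitosis, DNA replication and ribosome biogenesis.

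Most purine and polyamine synthesis genes were lower. Of 15 purine synthesis genes 10 were called lower and 0 higher (6 without combination replicate 2), with a median of -0.32. GART, an enzyme of purine ring assembly, was at 190, 189, 185 and 168 CPM with PI103, 181, 143, 179 and 181 CPM with PD0325901 and 124, 111, 137 and 132 CPM with the combination. The combination libraries were all below the rest, a departure of -0.49 (SE 0.09, adjusted p 0.000299). IMPDH2, the first enzyme toward GTP, departed by -0.55 and PFAS by -0.54. Of 15 pyrimidine and deoxynucleotide genes 4 were called lower (11.1% of all genes) and 0 higher, with a median of -0.23, and 8 without PD0325901 replicate 2. Of 14 polyamine genes 9 were called lower and 0 higher (5 without combination replicate 2), 5 of them beyond both agents. ODC1, the rate-limiting enzyme of polyamine synthesis, was at 208, 225, 195 and 188 CPM with PI103, 246, 203, 245 and 203 CPM with PD0325901 and 177, 142, 180 and 167 CPM with the combination, a departure of -0.36 (SE 0.08, adjusted p 0.00171) with no overlap. SRM, spermidine synthase, departed by -0.57, AMD1 by -0.40 and EIF5A, the factor that polyamines modify, by -0.51.

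Enzymes of glucose use fell beyond both agents in part. Of 23 glycolysis genes 11 were called lower and 0 higher, 5 of them beyond both, with a median of -0.23 and 9 to 12 calls when 1 library was left out. The table's PKM2 row, pyruvate kinase of the PKM gene, was at 2213, 2311, 2170.2 and 2023 CPM with PI103, 1679.8, 1578, 1923 and 1761 CPM with PD0325901 and 1334, 1205, 1440.4 and 1253 CPM with the combination. All combination libraries were below all others, a departure of -0.57 (SE 0.09, adjusted p 7.74e-05). HK2, the hexokinase of proliferating cells, was at 25.3, 30.0, 25.5 and 21.3 CPM with PI103, 31.0, 15.3, 23.3 and 25.5 CPM with PD0325901 and 14.8, 9.83, 14.9 and 13.3 CPM with the combination, a departure of -0.90 (SE 0.16, adjusted p 0.000418) without overlap. LDHA, lactate dehydrogenase, departed by -0.65 and SLC2A1, the glucose transporter GLUT1, by -0.78, the latter standing with PD0325901. HK2 and LDHA were chosen after their values were seen.

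In the TCA cycle 10 of 24 genes were called lower and 0 higher, with a median of -0.17, and 6 of the 10 were beyond both agents. Without batch 2, 6 were called. IDH3A, a subunit of isocitrate dehydrogenase, was at 63.8, 66.4, 67.0 and 55.4 CPM with PI103, 57.5, 58.4, 68.6 and 60.4 CPM with PD0325901 and 40.7, 41.8, 50.1 and 45.7 CPM with the combination, a departure of -0.48 (SE 0.10, adjusted p 0.00101) without overlap. Antisense exons lie opposite 38.9% of its exon sequence. PC, pyruvate carboxylase, was beyond both by -0.56 (SE 0.11, adjusted p 0.000658), with means of 4.57 ± 0.287, 4.77 ± 0.227 and 3.17 ± 0.270 CPM (SD, n = 4 each). MDH2 departed by -0.35, FH by -0.31 and SDHB by -0.30. Of 69 respiratory chain subunits 13 were called lower (11.1% of all genes), 9 of them standing with PI103. The count was 7 without combination replicate 2, 8 without PI103 replicate 2 and 6 with upper-quartile scaling, each near or below the share over all genes. In the pentose phosphate pathway 3 of 7 were lower, among them TKT, transketolase, by -0.49 (SE 0.10, adjusted p 0.000947).

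Protein folding and degradation genes are given by compartment. Of 18 cytosolic and mitochondrial heat shock proteins 8 were called lower and 0 higher (5 without combination replicate 4), among them HSPD1 (-0.53), TRAP1 (-0.48) and HSPA9 (-0.46) of mitochondria. Of 33 proteasome subunits 13 were lower and 0 higher, 8 without combination replicate 2 or PD0325901 replicate 3 and 7 without combination replicate 4. Of 20 chaperones of the endoplasmic reticulum 9 were higher and 0 lower, all standing with PD0325901, and 3 without combination replicate 2. HSPA5 (BiP) departed by 0.46, DNAJB9 by 0.75 and PDIA4 by 0.54.

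Lysosomal genes were higher in a minority. Of 36 members 8 were called higher (10.8% of all genes) and 1 lower (11.1% of all genes). Of the 8, 4 were beyond both agents (2.14% of all genes), and 15 members were higher with upper-quartile scaling. GAA, the lysosomal glucosidase that degrades glycogen, was at a mean of 34.9 ± 1.53 CPM with PI103, 39.0 ± 3.48 CPM with PD0325901 and 55.6 ± 7.82 CPM with the combination (SD, n = 4 each), a departure of 0.59 (SE 0.09, adjusted p 2.61e-05), and all 4 combination libraries lay above the other 8. CTSD, the main aspartic protease, departed by 0.40 and CTSA by 0.30. Of 25 cholesterol genes 9 were lower (11.1% of all genes) and 1 higher (10.8% of all genes), 5 of the lower ones standing with PI103. HMGCS1 departed by -0.22 (SE 0.16, adjusted p 0.341) and did not pass.

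Among regulators of cell death, the pro-death BH3-only proteins BMF and PMAIP1 moved in opposite directions. BMF was at 54.2, 46.7, 50.3 and 51.0 CPM with PI103, 36.2, 58.6, 31.8 and 28.3 CPM with PD0325901 and 87.0, 105, 77.3 and 74.3 CPM with the combination, against 11.4 ± 1.68 CPM (SD, n = 4) in control. The combination libraries were all above the rest, a departure of 0.96 (SE 0.13, adjusted p 2.22e-05). PMAIP1 (NOXA) was at 14.8, 11.7, 15.0 and 15.2 CPM with PI103, 21.2, 9.38, 19.0 and 19.2 CPM with PD0325901 and 6.47, 6.25, 8.52 and 9.11 CPM with the combination, against 72.5 ± 13.8 CPM (SD, n = 4) in control. It lay below all single-agent libraries in all 4 combination libraries, a departure of -1.04 (SE 0.21, adjusted p 0.00106). BCL2L11 (BIM) departed by 0.29 (SE 0.09, adjusted p 0.022) and did not pass without combination replicate 1. In the BCL2 family 2 of 13 were thus called higher and 1 lower, against 10.8% and 11.1% of all genes. The other 10 did not pass, among them MCL1 (0.06), BCL2L1 (-0.15) and BAX (-0.09). Of 19 p53 targets 5 were called lower and 1 higher (3 higher with the batch as a block), against 11.1% and 10.8% of all genes. Lower calls were 2 without combination replicate 2 and 3 without PD0325901 replicate 3.

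Calls in the cell cycle lists depended on which libraries were used. Of 29 mitosis genes 8 were called lower and of 38 DNA replication genes 12, all standing with PD0325901. Without combination replicate 2 these counts were 0 and 1, without PD0325901 replicate 2 they were 18 and 21, and with the batch as a block 14 and 22. Without batch 2 they were 8 and 8. Without PD0325901 replicate 3 they were 2 and 6, and without its replicate 4, 5 and 7. Mitosis had 14 without combination replicate 3, and DNA replication 6 or 7 without PI103 replicate 1 or 2 or PD0325901 replicate 1. The median level of the mitosis list was -0.29, -1.38, -0.11 and -0.22 in the combination, -0.45, -1.06, -0.32 and -0.31 with PD0325901 and 0.53, 0.48, 0.54 and 0.45 with PI103. AURKA, a mitotic kinase, departed by -0.61 (SE 0.16, adjusted p 0.0109), TPX2, its activator, by -0.61 (SE 0.19, adjusted p 0.0216) and CCND1, cyclin D1, by -0.52 (SE 0.14, adjusted p 0.00904), and none of the 3 passed without combination replicate 2. CDK4, the partner of cyclin D1, was beyond both by -0.41 (SE 0.10, adjusted p 0.00372), though antisense exons lie opposite 43.2% of its exon sequence.

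Other genes with large rises by the rule had mixed patterns. TNNT2, a cardiac troponin, was at 1.20, 1.08, 0.840 and 0.905 CPM with PI103, 8.12, 11.4, 7.48 and 6.90 CPM with PD0325901 and 10.9, 19.3, 9.52 and 12.001 CPM with the combination, beyond both by 2.14 (SE 0.17, adjusted p 3.58e-09). GPR124 (ADGRA2), an adhesion receptor, was beyond both by 1.89 (SE 0.15, adjusted p 3.58e-09), and PPYR1, an older symbol shared by the near-identical receptor genes NPY4R and NPY4R2, by 1.82 (SE 0.19, adjusted p 1.91e-07). In all 3, at least 1 PD0325901 library overlapped the combination. FAM134B (RETREG1), a receptor for autophagy of the endoplasmic reticulum, departed by 1.67 and stood with PD0325901, as did MIA2 (1.67). PDZK1IP1 was at 1.12, 0.954, 0.891 and 0.872 CPM with PI103, 14.5, 42.9, 17.5 and 15.7 CPM with PD0325901 and 12.7, 46.7, 11.2 and 11.4 CPM with the combination, a departure of 2.13 that was 1.34 without combination replicate 2 and 0.64 against the arithmetic mean of the agents. CYP1A1, the aryl hydrocarbon receptor target, was at 0.477, 0.503, 0.411 and 0.452 CPM with PI103, 12.7, 19.5, 7.94 and 7.41 CPM with PD0325901 and 6.03, 29.4, 5.82 and 6.67 CPM with the combination, a departure of 2.35 that was 1.40 without that library and 0.67 against the arithmetic mean, which did not pass (limma, adjusted p 0.122). Replicate 2 was the highest of both groups that held PD0325901 in these last 2 genes. For MPP1, at 0.169, 0.173, 0.309 and 0.194 CPM with PI103, 14.2, 25.2, 19.0 and 16.0 CPM with PD0325901 and 4.71, 13.9, 7.06 and 7.82 CPM with the combination, the combination lay between the agents. Its departure was 2.07 on the log2 scale but -0.25 against the arithmetic mean of the agents.

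Among the 5 largest falls beyond both agents by the rule, 3 genes besides PHLDA1 were lower in every combination library than in any single-agent library. FLJ22447, a long noncoding RNA gene, was at 10.1, 10.3, 13.3 and 10.9 CPM with PI103, 4.12, 4.55, 4.34 and 3.27 CPM with PD0325901 and 1.86, 2.59, 2.78 and 2.44 CPM with the combination, a departure of -1.48 (SE 0.19, adjusted p 6.45e-06). KIF21B, a kinesin, was at 5.97, 8.13, 7.06 and 8.72 CPM with PI103, 16.6, 8.62, 9.92 and 9.71 CPM with PD0325901 and 3.43, 3.44, 4.07 and 3.15 CPM with the combination, a departure of -1.37 (SE 0.23, adjusted p 0.000176). PRF1 (perforin), at 13.5, 13.2, 12.3 and 13.1 CPM with PI103, 4.39, 5.31, 5.08 and 4.54 CPM with PD0325901 and 3.23, 3.23, 3.15 and 2.95 CPM with the combination, was above the control level of 5.02 ± 0.681 CPM (SD, n = 4) with PI103 alone, and departed by -1.33 (SE 0.10, adjusted p 1.55e-09). UBASH3B, a phosphatase, was at 22.4, 21.2, 21.7 and 16.1 CPM with PI103, 1.89, 0.910, 2.05 and 1.504 CPM with PD0325901 and 2.64, 0.319, 1.48 and 1.76 CPM with the combination, a departure of -1.86 (SE 0.29, adjusted p 9.88e-05) called against PI103 only. TLR4, the receptor of endotoxin, was at 89.3, 79.1, 81.5 and 77.5 CPM with PI103, 2.21, 0.704, 1.73 and 2.92 CPM with PD0325901 and 5.28, 1.13, 4.41 and 4.30 CPM with the combination, between the agents, a departure of -1.71 (SE 0.28, adjusted p 0.000209). DDIT4 departed by -2.09 (SE 0.63, adjusted p 0.0226) and NUPR1 by -1.68 (SE 0.55, adjusted p 0.0307). These stress genes stood with PI103, and each lost the call when any of the 4 combination libraries was left out, and NUPR1 also without replicate 1 of either agent. Antisense exons lie opposite 41.2% of the DDIT4 exon sequence.

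Markers of gastric and intestinal differentiation were split, with 7 of 28 called higher and 6 lower, against 10.8% and 11.1% of all genes. REG4, a secreted lectin of intestinal-type cells, was at 20.8, 14.4, 12.2 and 19.6 CPM with PI103, 13.1, 13.7, 16.0 and 17.8 CPM with PD0325901 and 7.80, 9.11, 8.77 and 9.43 CPM with the combination, beyond both and lower, with a departure of -0.86 (SE 0.12, adjusted p 1.43e-05). SOX2, a stomach factor, departed by -0.81 and AGR2, a disulfide isomerase of mucous cells, by -0.996. LGR5, a stem cell receptor of the Wnt pathway, was beyond both and higher by 0.42 (SE 0.07, adjusted p 0.000332), with means of 253 ± 10.9, 226 ± 17.2 and 320 ± 25.1 CPM (SD, n = 4 each). MUC1 departed by 0.86 (SE 0.17, adjusted p 0.00108) and CDH17, an intestinal cadherin, by 0.66 (SE 0.08, adjusted p 4.77e-06), both standing with PD0325901. The 7 higher calls became 4 without combination replicate 2 and 11 without PD0325901 replicate 2.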

How the data were processed

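RNA of 24 AGS libraries was sequenced from stranded mRNA libraries, per the labels' protocols. The authors deposited 1 table of raw read counts per gene symbol, and the genome build was GRCh38, per the submitters' processing notes. The aligner, the counter, the annotation and the strand setting are not given in the sources used here. Reads assigned to no gene, 10.7 to 15.4% in the 12 libraries compared, were left out. The deposited counts list ambiguous and not uniquely aligned reads among them. Of 23368 genes, 3199 had 0 counts and 13947 passed edgeR's filter on low counts, and these hold 99.989% of the assigned counts. The replicates are called biological in the design text. All 24 libraries were fitted with TMM factors, 1 coefficient per group and the robust quasi-likelihood test of edgeR 4.0.16 in R 4.3.3, with Benjamini-Hochberg adjustment over all genes at 0.05. The procedure was tested on simulated data.

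The members and lists were chosen with earlier results of these data known. Named genes were, at a mean of at least 5 CPM, called and of the same sign in all 4 batches, the 10 largest rises and the 10 largest falls and the 5 largest departures beyond both agents in each direction. To these were added the 2 called members of each list with the smallest adjusted p and 20 readout genes. Other genes were chosen after their values were seen. Lists are described by counts and medians. Promoters were those of RefSeq (GRCh38.p14), matched by symbol for 10529 genes. Libraries of the same replicate number share the batch given in the labels. Their deviations from the group means correlated by 0.16 on average over 12 pairs (-0.096 to 0.52), against -0.051 over 36 pairs of different number. The alternatives were DESeq2 1.42.0, other scaling factors, no filter, the 12 libraries alone, the batch as a block, a test against a log2 change of 1 (glmTreat), each library left out in turn, and limma 3.58.1 on differences within batches. Leaving out batch 2, and counting list members under the other settings, were chosen after seeing the data. Results for some genes are not reported here.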

Additional observations from a re-analysis of the deposited data

Results flagged for a closer look

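In 45 genes described above, 135 groups of 4 libraries were examined for a library whose gap to the nearest of the others as a share of the group's range exceeded Dixon's critical value. Chance flags about 1 in 20 groups. There were 13 such libraries, and 8 of them were replicate 2. In the combination, replicate 2 was at 46.7 CPM for PDZK1IP1 against 11.2 to 12.7 in the other 3, and at 29.4 CPM for CYP1A1 against 5.82 to 6.67. It was low for DUSP6, at 1.63 CPM against 4.31 to 5.01, and for TLR4, at 1.13 CPM against 4.30 to 5.28. With PD0325901, replicate 2 was low for ETV4, at 0.343 CPM against 1.27 to 1.5, for GART, at 143 CPM against 179 to 181, and for PMAIP1, at 9.38 CPM against 19.0 to 21.2. With PI103, replicate 2 was low for PMAIP1, at 11.7 CPM against 14.8 to 15.2.

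The other 5 libraries had no common number. IRF9 was at 37.9 CPM in PD0325901 replicate 3 against 34.5 to 34.9, and CXCL10 at 6.34 CPM in PD0325901 replicate 4 against 4.86 to 4.98. SLC7A11 was at 131 CPM in PD0325901 replicate 1 against 62.4 to 65.6. With PI103, UBASH3B was at 16.1 CPM in replicate 4 against 21.2 to 22.4, and IL29 at 0.806 CPM in replicate 3 against 1.15 to 1.21.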

How the results depend on the processing

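The count of 3065 departing genes was 3439 with DESeq2, 2655 with no filter and 2654 with the 12 libraries alone. It ranged from 1466 to 3977 when 1 library was left out, lowest without combination replicate 2 and highest without PD0325901 replicate 2. Genes beyond both agents ranged from 336 to 1036, those called against PI103 only from 744 to 2024 and those called against PD0325901 only from 271 to 785. Without batch 2 the count called against PI103 only was 920. With the batch as a replicate block, 4090 genes departed and 994 were beyond both agents, and the counts it moved by over 1.5 times in lists described above were those of mitosis, DNA replication, cytosolic ribosomal proteins, the inhibited kinases, receptors and insulin signalling, NF-kB and p53 targets, given there, and the higher calls of the respiratory chain, 1 in place of 0. The block changed no call of the other genes named by the rule and given above. With upper-quartile scaling, lower calls were 19 for mitochondrial ribosomal proteins, 2 for cytosolic ones, 10 for translation factors, 7 for the proteasome, 6 for DNA replication and 0 for the inhibited kinases, and higher calls were 3 for p53 targets, 2 for receptors and insulin signalling, and 1 each for ETS factors and glycolysis. With no filter, lower calls were 1 for mitosis and 2 for cytosolic ribosomal proteins. With the 12 libraries alone, lower calls were 3 for mitosis, 5 for DNA replication, 3 for p53 targets and 2 for cytosolic ribosomal proteins, and higher calls were 3 for NF-kB and 0 for Sprouty and Spred genes. Without batch 2, lower calls fell to 2 for ETS factors and for cytosolic ribosomal proteins, 3 for p53 targets, 3 for immediate-early genes, 5 for serine and one-carbon enzymes, 3 for mitochondrial synthetases, 8 for the respiratory chain, 10 for translation factors and 5 for heat shock proteins, and higher calls to 2 for NF-kB. Differences taken within batches gave 4784 genes against the log2 mean and 4752 against the arithmetic mean of the agents, 2032 higher and 2720 lower. Tested against a log2 change of 1 (glmTreat), 29 genes were called, 27 higher and 2 lower. All 29 were called against PI103 only, and 0 were beyond both or called against PD0325901 only. The minimum of 1 held for the tests against each agent too. In this setting the class therefore does not show that a gene stood with PD0325901 or was not beyond both. In edgeR's test without that minimum the count at an unadjusted p under 0.05 was 4976.

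Of the named genes, MPP1 (-0.25), ADM (-0.19) and IRS1 (-0.15) changed sign against the arithmetic mean. Among genes that did not pass, MYC changed sign with upper-quartile scaling (0.041) and without PD0325901 replicate 1 or 3 or combination replicate 2 or 4. Its range with 1 library left out was -0.081 to 0.042. That range was -0.027 (without combination replicate 1) to 0.14 for IRS1, and, lowest without combination replicate 2, -0.033 to 0.61 for PIK3IP1 and -0.017 to 0.52 for APOA1. The cause was not tested. Over all named genes and alternatives, 3127 values kept direction and call, 211 lost the call, 16 gained it and 11 changed sign. Genes below about 1 CPM rest on few reads, and the p-values measure the spread of 4 replicates.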
